A study of Mus musculus with 18 samples.

Results

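The genes described here are the EGF receptor family and its main ligands in sorted mouse airway and lung cells: the receptors *Egfr*, *Erbb2*, *Erbb3* and *Erbb4* and the ligands *Areg*, *Ereg*, *Hbegf*, *Tgfa*, *Btc* and *Nrg1*. They were taken as a list of 10 symbols, matched to the Entrez identifiers of the deposited count files, and all 10 were found among the 27179 genes counted. All 10 also passed the filter on low counts, *Erbb4* through its tracheal libraries, where nearly all of its reads lay.

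ERBB receptors are tyrosine kinases of the cell surface that signal in pairs. EGFR binds EGF, amphiregulin (*Areg*), TGFα (*Tgfa*), HB-EGF (*Hbegf*), betacellulin (*Btc*) and epiregulin (*Ereg*), whereas ERBB3 and ERBB4 bind neuregulins such as the product of *Nrg1*, and ERBB4 also binds HB-EGF, betacellulin and epiregulin. ERBB2 has no known ligand and acts as a partner of the others, and ERBB3 has little kinase activity of its own. The ligands are made as membrane proteins and are shed by proteases such as ADAM17, and the activated receptors drive the RAS-ERK and PI3K cascades, which switch on their own inhibitors. In airway epithelium this signalling is known for its part in growth and in repair after injury.

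RNA was sequenced from 6 populations sorted from untreated C57BL/6 mice, with 3 libraries each and 18 in all. Tracheal basal stem cells (BSCs, labelled Basal) were sorted by surface NGFR, and cells of the same tracheas without it (Non-Basal) formed a mixed luminal population, both from mice 1 to 3. From the lungs of mice 4 to 6 came airway cells positive for EpCAM and CD104 with high CD24 (Airway CD24H, enriched for ciliated cells, here CD24hi) or low CD24 (Airway CD24L, enriched for club cells, here CD24lo), EpCAM-positive CD104-low alveolar cells (Alveolar EpCAM pos) and EpCAM-negative, non-epithelial cells (EpCAM neg). The labels give no age, and the study's methods describe the mice of this strain as young adult males. Tracheas were digested with dispase and trypsin and lungs with collagenase. Organ, animal and digestion therefore cannot be told apart in any comparison of a tracheal with a lung population, and sex, described below, differs there in part.

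Tracheal libraries held 29317215 to 32993621 counted reads and lung libraries 9811503 to 13208897. The tracheal counts exceed the number of reads per mouse sample given in the study's methods, and they were used as deposited. The sorted populations carried the markers of their labels: the summed level of 4 basal markers was 1717 to 1801 RPKM in BSCs and 121.8 to 156.6 RPKM in non-basal cells, that of 3 ciliated markers 822.3 to 936.1 RPKM in CD24hi and 71.4 to 149.4 RPKM in CD24lo cells, and that of 4 alveolar type 2 markers at least 163900 RPKM in alveolar cells. RPKM is the number of reads per kilobase of exonic length, relative to the library size after TMM scaling. EpCAM-negative cells held 4 fibroblast markers at 5570 to 5782 RPKM and 3 smooth muscle markers at 1456 to 1551 RPKM in sum. Their 2 epithelial markers were at 4.35 to 4.57 RPKM. In sum, 3 endothelial markers were at 84.7 to 132.7 RPKM there, a range that overlapped with those of CD24hi (35.3 to 114.7 RPKM) and CD24lo cells (82.1 to 164.9 RPKM). In 5 libraries the counts differed from those of the other replicates far more than those differed from each other: BSC, non-basal, CD24hi and CD24lo replicate 1 and alveolar replicate 2. Mouse 1 also differed in sex-linked genes. *Xist* was at 1.25 CPM in its BSCs and 0.818 CPM in its non-basal cells, against 610.3 to 896.8 CPM in mice 2 and 3, and *Kdm5d*, which lies on the Y chromosome, showed the opposite pattern, so mice 2 and 3 go against the description as males. Each result below is also given without these 5 libraries wherever they decide a call.

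Differences were tested with edgeR's quasi-likelihood test with a single fit for the 18 libraries, p-values adjusted after Benjamini and Hochberg for 17989 genes and a threshold of 0.05. These populations differ in much of their transcriptome, and the calls of single genes are to be read against that. Between BSCs and the other populations, 48.2% of all genes were called against non-basal cells, 72.0% against CD24hi cells, 63.8% against CD24lo cells, 66.1% against alveolar cells and 70.3% against EpCAM-negative cells. Between non-basal cells and lung populations, 68.4% were called against CD24hi, 53.1% against CD24lo, 64.0% against alveolar and 71.6% against EpCAM-negative cells. Within the lung, the share was 55.0% for CD24hi against CD24lo cells, 61.9% for CD24hi against alveolar cells, 48.4% for CD24lo against alveolar cells, and 72.2%, 63.4% and 61.9% for EpCAM-negative cells against CD24hi, CD24lo and alveolar cells.

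*Egfr* (Entrez 13649, chr11:16752203-16913907 of mm10), the receptor that binds EGF, was highest in BSCs. Its levels in the 3 BSC libraries were 27.7, 30.8 and 31.9 RPKM, against 7.34, 7.76 and 8.90 RPKM in non-basal cells of the same mice. The ranges did not overlap, and *Egfr* was 3.77-fold higher in BSCs (log2 fold change 1.91, SE 0.12, edgeR adjusted p = 9.6e-10). The second highest population was the EpCAM-negative one, at 13.8, 16.5 and 15.8 RPKM. In lung epithelium the levels were 5.04, 5.98 and 6.79 RPKM in CD24hi cells, 3.19, 3.42 and 2.97 RPKM in CD24lo cells and 3.08, 2.34 and 2.92 RPKM in alveolar cells. The 4 steps of the order from BSCs through EpCAM-negative, non-basal and CD24hi to CD24lo cells all passed the test, whereas CD24lo and alveolar cells did not differ detectably (log2 difference 0.20, edgeR adjusted p = 0.232). Between BSCs and alveolar cells the difference was 10.8-fold (log2 3.44, SE 0.13, edgeR adjusted p = 2.42e-13). In bulk samples such as these, fewer cells that carry a transcript and less of it per cell cannot be told apart, here and for all genes below.

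*Erbb2* (Entrez 13866, chr11:98412484-98437716), the partner receptor without a ligand, was the member that separated all 6 populations, since each of the 5 steps of its order passed the test. It was highest in non-basal cells, at 49.1, 45.5 and 47.4 RPKM, followed by BSCs at 37.4, 38.6 and 37.7 RPKM. CD24lo cells held 24.4, 25.1 and 24.9 RPKM, CD24hi cells 21.6, 16.7 and 17.3 RPKM and alveolar cells 16.5, 14.3 and 14.3 RPKM. EpCAM-negative cells had the lowest level, 7.23, 7.60 and 7.09 RPKM. Neighbouring ranges did not overlap, although the lowest CD24hi library lay just above the highest alveolar one. The difference between BSCs and non-basal cells was -0.32 on the log2 scale (SE 0.09, edgeR adjusted p = 0.00767), and with library size alone as the scaling it was 0.03 (edgeR adjusted p = 0.824, the highest of 16 alternatives whose lowest was 0.000183). Without the 5 libraries that stood apart, the step from CD24hi to alveolar cells was not called (log2 0.14, edgeR adjusted p = 0.119, the highest of 16 alternatives whose lowest was 1.72e-05). In another annotation, with 5210 exonic bases for *Erbb2* against 4998 in the counts, 0.173% of the 5210 bases are shared with the neighbouring gene *Mien1*.

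*Erbb3* (Entrez 13867, chr10:128567523-128589635), a neuregulin receptor, was an epithelial transcript in these cells. It stood at 32.9, 30.3 and 30.1 RPKM in BSCs and 36.4, 33.5 and 32.4 RPKM in non-basal cells. Alveolar cells held 25.7, 24.5 and 24.5 RPKM, CD24hi cells 21.9, 19.3 and 22.7 RPKM and CD24lo cells 16.8, 23.9 and 23.6 RPKM. In EpCAM-negative cells it was at 0.699, 0.637 and 0.796 RPKM, far below every epithelial library. Against the mean of the 3 lung epithelial populations on the log2 scale, the difference was -4.98 (SE 0.14, edgeR adjusted p = 2.6e-15), which is 31.5-fold. Among epithelial populations only the step from BSCs to alveolar cells passed the test in its order (log2 0.32, SE 0.11, edgeR adjusted p = 0.018). That call was lost without BSC replicate 1 (edgeR adjusted p = 0.0652) or without alveolar replicate 2 (edgeR adjusted p = 0.0518), with 3.68e-06 to 0.0652 over 16 alternatives. Both are among the libraries that stood apart, and with all 5 of those left out the call was kept (log2 0.26, edgeR adjusted p = 0.00604).

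*Erbb4* (Entrez 13869, chr1:68031884-69108576) was close to absent from lung cells. It had 40, 74 and 93 reads in non-basal cells and 13, 22 and 23 reads in BSCs. The 12 lung libraries held at most 6 reads each: 1 in all in CD24hi cells, 8 in CD24lo cells, 3 in alveolar cells and 3 in EpCAM-negative cells. Per length and depth, its level was 0.127 ± 0.0355 RPKM in BSCs and 0.547 ± 0.203 RPKM in non-basal cells (mean ± SD, n = 3, as for all values with ± below), so that even at its highest it was a small part of the receptor transcripts. The ratio of non-basal cells to BSCs was 4.30, with an exact 95% interval of 3.20 to 5.86 that covers counting error only, and the call passed edgeR's test (log2 fold change -2.09 for BSCs, SE 0.37, adjusted p = 0.00017). *Erbb4* was also called between BSCs and alveolar cells, with a ratio of 5.82 (exact 95% interval 1.89 to 29.0). The filter on low counts let the gene through because it was higher in trachea, so this difference is not independent of the filter. CD24lo against CD24hi cells gave 8 reads against 1, a ratio of 10.6 (exact 95% interval 1.42 to 471.1). The call in edgeR's test (adjusted p = 0.0407) rested on these 9 reads: it was lost without CD24hi replicate 1 (adjusted p = 0.105), CD24hi replicate 2 (adjusted p = 0.111) or CD24lo replicate 2 (adjusted p = 0.352) and with library size alone (adjusted p = 0.0589), with 0.02 to 0.352 over 15 alternatives.

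**Figure D1:**
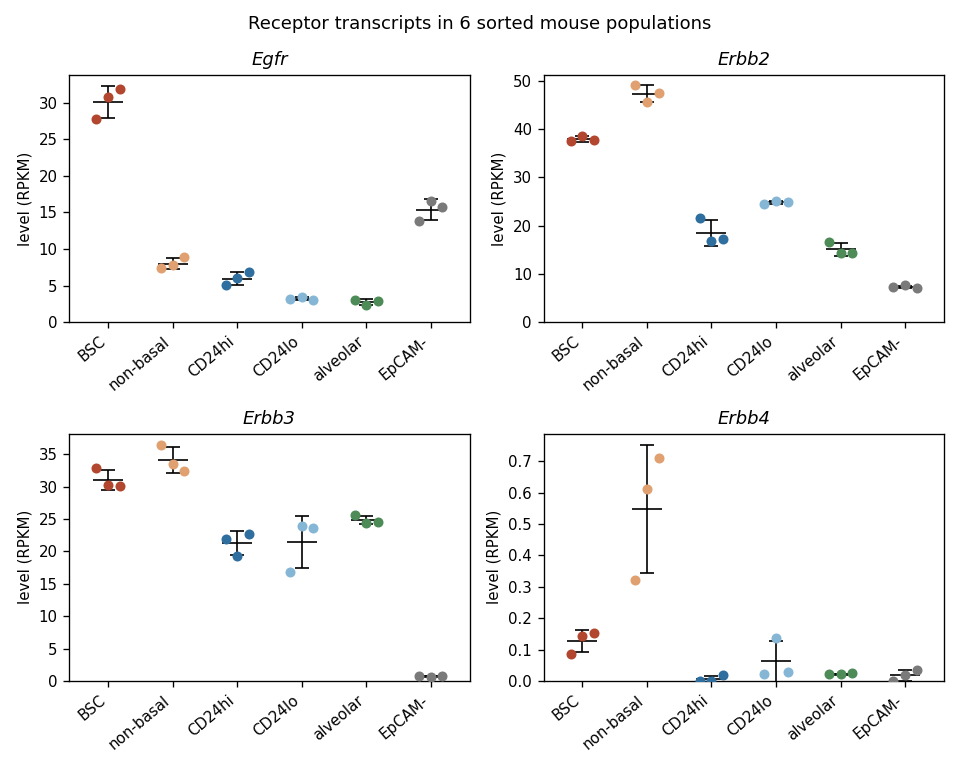
Level of each receptor transcript in RPKM (linear axis from 0, one scale per panel) in the 3 libraries of each population, as points in the order of the replicate numbers, with the mean and SD as bars; bars that reach below 0 end at the axis. *Egfr* lies at 27.7 to 31.9 RPKM in BSCs and 13.8 to 16.5 RPKM in EpCAM-negative cells, *Erbb3* is under 1 RPKM only in EpCAM-negative cells, and *Erbb4* stays under 0.72 RPKM everywhere.

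Summed over the 4 receptors, transcript levels were 99.3 ± 0.986 RPKM in BSCs and 90.0 ± 2.90 RPKM in non-basal cells. They were 42.7 ± 2.23 RPKM in alveolar cells, 45.8 ± 3.42 RPKM in CD24hi cells, 49.5 ± 4.42 RPKM in CD24lo cells and 23.4 ± 1.53 RPKM in EpCAM-negative cells. The populations differed in which receptor prevailed. On the exonic lengths of the counts, the sum in BSCs was spread almost evenly, with 30.3% ± 1.91 *Egfr*, 38.2% ± 0.448 *Erbb2* and 31.3% ± 1.91 *Erbb3*. Shares between genes depend on these lengths, 6438 bases for *Egfr*, 4998 for *Erbb2* and 4020 for *Erbb3*. Another annotation gives 11326, 5210 and 6016 bases, and the SDs do not cover this. The same limit holds for the shares of the ligands below. In non-basal cells *Egfr* made up 8.90% ± 1.03 and *Erbb2* 52.6% ± 0.478, while in alveolar cells *Erbb3* led with 58.3% ± 1.48. EpCAM-negative cells were the only population in which *Egfr* led, with 65.6% ± 1.77, and *Erbb3* was 3.05% ± 0.419 there. The ratio of *Egfr* to *Erbb2*, which does not depend on the scaling between libraries, was 0.740 to 0.846 in BSCs, 1.92 to 2.23 in EpCAM-negative cells and at most 0.394 in the other populations.

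Among the ligands, *Areg*, *Ereg* and *Btc* lie close together on chromosome 5 of mm10: *Ereg* (Entrez 13874) at chr5:91074617-91093649, *Areg* (Entrez 11839) at chr5:91139599-91148432 and *Btc* (Entrez 12223) at chr5:91357261-91402994. Although neighbours, they peaked in 3 different populations, *Areg* in CD24hi cells, *Btc* in CD24lo cells and *Ereg* in EpCAM-negative cells. The 250 bases before the start site are shown for *Areg* and *Btc*, since these 2 genes moved in opposite directions between CD24hi and CD24lo cells. The sequences are those of RefSeq on GRCm38.p6, read 5′ to 3′ on the strand of the gene, chr5:91139349-91139598 (+) for *Areg* and chr5:91402995-91403244 (-) for *Btc*, and a promoter was found for 6 of the 10 members in that table.
Areg: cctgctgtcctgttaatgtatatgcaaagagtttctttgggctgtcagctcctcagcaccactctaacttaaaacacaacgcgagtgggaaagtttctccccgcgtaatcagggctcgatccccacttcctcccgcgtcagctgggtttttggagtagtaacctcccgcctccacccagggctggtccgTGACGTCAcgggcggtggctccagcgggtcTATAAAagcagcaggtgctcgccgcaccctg
Btc: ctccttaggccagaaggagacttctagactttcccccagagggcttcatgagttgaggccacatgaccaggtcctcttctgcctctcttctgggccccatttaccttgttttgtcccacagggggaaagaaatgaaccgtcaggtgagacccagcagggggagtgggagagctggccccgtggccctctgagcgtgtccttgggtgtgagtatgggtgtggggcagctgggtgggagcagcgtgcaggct
Capitals mark the letters TGACGTCA, the cAMP response element, at -61 to -54 of the *Areg* start, and TATAAA, a core promoter element, at -31 to -26. TGACGTCA reads the same on both strands. TGACGTCA was found in 1.55% and TATAAA in 12.4% of 32851 windows of this length, and the AP-1 letters TGANTCA, searched on both strands, in 6.75%. The *Btc* window held none of the 3, which says only that these letters are not in it.

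*Areg*, amphiregulin, an EGFR ligand with a heparin-binding part, was the leading ligand transcript of CD24hi and alveolar cells. CD24hi cells held 206.5, 242.3 and 219.7 RPKM, alveolar cells 83.7, 93.1 and 91.5 RPKM and CD24lo cells 58.6, 40.1 and 29.7 RPKM. The 3 ranges did not overlap. *Areg* was 5.20-fold higher in CD24hi than in CD24lo cells (log2 2.38, SE 0.25, edgeR adjusted p = 2.66e-07) and 2.49-fold higher than in alveolar cells (log2 1.32, SE 0.24, edgeR adjusted p = 0.000103). Between CD24lo and alveolar cells, *Areg* was lower in the former (log2 -1.06, SE 0.24, edgeR adjusted p = 0.00144). In trachea the levels were more than an order of magnitude below those of CD24hi cells, at 3.70, 6.57 and 8.95 RPKM in BSCs and 4.60, 6.82 and 6.52 RPKM in non-basal cells. These ranges overlapped and the difference was 0.10 on the log2 scale (SE 0.26, edgeR adjusted p = 0.788). EpCAM-negative cells were lowest, at 2.08, 1.65 and 2.22 RPKM. BSC replicate 1 was the lowest BSC library, and CD24lo replicate 1 the highest CD24lo library, and both stood apart. Without the 5 libraries that stood apart, the difference between CD24hi and CD24lo cells was 2.73 on the log2 scale.

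*Hbegf* (Entrez 15200), HB-EGF, which binds EGFR and ERBB4, was the leading ligand transcript of the trachea. It stood at 183.1, 201.3 and 204.4 RPKM in BSCs and 73.8, 89.1 and 91.6 RPKM in non-basal cells. It was 2.31-fold higher in BSCs (log2 1.21, SE 0.15, edgeR adjusted p = 2.81e-06). In the lung it was highest in CD24hi cells, at 81.6, 95.3 and 83.3 RPKM, a level that did not differ detectably from that of non-basal cells (log2 difference 0.03, edgeR adjusted p = 0.864). CD24lo cells held 45.2, 61.3 and 40.5 RPKM, alveolar cells 27.5, 34.2 and 34.8 RPKM and EpCAM-negative cells 8.52, 7.16 and 9.94 RPKM. Each further step of the order, from non-basal to CD24lo, from CD24lo to alveolar and from alveolar to EpCAM-negative cells, passed the test. *Hbegf* is known as an early response gene, and 12 immediate early and dissociation response genes such as *Fos* and *Egr1* were in sum at 12440 to 16040 RPKM in BSCs, 6859 to 9627 RPKM in non-basal cells, 8615 to 9383 RPKM in CD24hi cells, 6788 to 7319 RPKM in CD24lo cells, 4424 to 5612 RPKM in alveolar cells and 11670 to 14080 RPKM in EpCAM-negative cells. None of the 12 was without reads in any population. Among epithelial populations the list, like *Hbegf*, was highest in BSCs, higher in CD24hi than in CD24lo cells and lowest in alveolar cells. Its range in non-basal cells overlapped with those of CD24hi and of CD24lo cells. The list was also high in EpCAM-negative cells, where *Hbegf* was lowest, and its part in the *Hbegf* differences was not tested.

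*Nrg1* (Entrez 211323, chr8:31807452-32891609), a neuregulin that binds ERBB3 and ERBB4, had 2 high populations of different organs. CD24hi cells held 10.4, 9.12 and 9.80 RPKM and BSCs 5.49, 8.71 and 10.8 RPKM, ranges that overlapped (log2 difference 0.23, edgeR adjusted p = 0.354). The cells sorted beside each of them had far less, with 2.58, 3.36 and 1.86 RPKM in CD24lo cells and 0.794, 0.735 and 1.08 RPKM in non-basal cells. *Nrg1* was 9.52-fold higher in BSCs than in non-basal cells (log2 3.25, SE 0.25, edgeR adjusted p = 1.13e-08), the largest change of a member in that comparison, and 3.73-fold higher in CD24hi than in CD24lo cells (log2 1.90, SE 0.25, edgeR adjusted p = 4.38e-06). EpCAM-negative cells held 0.802, 0.550 and 0.398 RPKM and alveolar cells 0.293, 0.263 and 0.384 RPKM, which did not differ detectably from each other (edgeR adjusted p = 0.105). The level in non-basal cells was 10.5% of that in BSCs and thus among those of the 4 basal markers (5.41% to 12.7%), whereas *Egfr* was at 26.6% and *Hbegf* at 43.2%. In CD24lo cells *Nrg1* was at 26.6% and *Areg* at 19.2% of the CD24hi level, against 9.66% to 11.9% for 3 ciliated markers. How much of these levels came from cells of the other gate was not tested. In another annotation, with 10351 exonic bases for *Nrg1* against 2103 in the counts, 4.66% of the 10351 bases are shared with the predicted gene *Gm26578*. What part of the counted bases is shared was not determined.

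*Btc*, betacellulin, which binds EGFR and ERBB4, was highest in CD24lo cells, at 5.09, 10.5 and 9.33 RPKM. Alveolar cells held 3.19, 2.46 and 3.12 RPKM, non-basal cells 2.76, 2.43 and 2.50 RPKM and CD24hi cells 0.997, 2.52 and 2.84 RPKM. These 3 populations followed each other without a detectable step. CD24lo cells exceeded alveolar cells 2.83-fold (SE 0.31 on the log2 scale, edgeR adjusted p = 0.000522) and CD24hi cells 3.90-fold (log2 -1.97 for CD24hi, edgeR adjusted p = 3.29e-05). The lowest populations were EpCAM-negative cells at 0.866, 0.775 and 0.768 RPKM and BSCs at 0.850, 0.452 and 0.785 RPKM. *Btc* was therefore lower in BSCs than in non-basal cells (log2 -1.88, SE 0.31, edgeR adjusted p = 8e-05), opposite to *Nrg1*, *Egfr* and *Hbegf*. CD24lo replicate 1 had the least *Btc* of its group and CD24hi replicate 1 the least of its own. Without the 5 libraries that stood apart, CD24hi was again below CD24lo cells (log2 -1.88, edgeR adjusted p = 2.6e-07). *Btc* in CD24hi cells was at 25.6% of its CD24lo level and 3 club cell markers were at 9.69% to 25.0%, and the part of club cells in the CD24hi level was not tested.

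*Tgfa* (Entrez 21802, chr6:86195038-86275744), TGFα, an EGFR ligand, varied little across epithelium. BSCs held 8.53, 10.3 and 10.8 RPKM and non-basal cells 9.25, 9.74 and 10.9 RPKM. CD24hi cells held 7.85, 9.35 and 9.60 RPKM, CD24lo cells 7.49, 10.3 and 10.3 RPKM and alveolar cells 7.69, 7.22 and 8.02 RPKM. No neighbouring pair of epithelial populations differed detectably. EpCAM-negative cells stood clearly lower, at 1.29, 1.17 and 1.85 RPKM, 5.96-fold below the mean of the lung epithelial populations (log2 -2.58, SE 0.15, edgeR adjusted p = 5.24e-11). Between BSCs and alveolar cells *Tgfa* was called with a log2 difference of 0.37 (SE 0.15, edgeR adjusted p = 0.0346). This call was lost on leaving out BSC replicate 2 or 3 or alveolar replicate 1 or 2, and the adjusted p ran from 6.95e-05 to 0.124 over 16 alternatives. Without the 5 libraries that stood apart it was kept (log2 0.42, edgeR adjusted p = 0.00308).

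*Ereg*, epiregulin, a ligand of EGFR and ERBB4, was the only ligand of the 6 that was highest in EpCAM-negative cells. Its levels there were 1.92, 2.36 and 2.47 RPKM, and no other library exceeded 0.717 RPKM. Against the mean of the lung epithelial populations, *Ereg* was 8.18-fold higher (log2 3.03, SE 0.32, edgeR adjusted p = 1.72e-07). The other populations held 0.172, 0.428 and 0.362 RPKM (BSCs), 0.222, 0.527 and 0.669 RPKM (non-basal cells), 0.219, 0.717 and 0.437 RPKM (CD24hi), 0.223, 0.214 and 0.278 RPKM (CD24lo) and 0.107, 0.312 and 0.146 RPKM (alveolar cells). No neighbouring pair among these 5 differed detectably. Non-basal cells were called above alveolar cells (log2 1.32, SE 0.52, edgeR adjusted p = 0.0347), although their ranges overlapped. Other calls of *Ereg* between epithelial populations depended on the fit. CD24hi against CD24lo cells was not called (edgeR adjusted p = 0.151) and was called with the mouse as a replicate block (log2 0.89, edgeR adjusted p = 0.0489), and CD24hi against alveolar cells likewise (edgeR adjusted p = 0.0557, and 0.0089 with the block, log2 1.25). Both were called without the 5 libraries that stood apart, with log2 differences of 1.25 (edgeR adjusted p = 0.00997) and 2.20 (edgeR adjusted p = 0.000294). Over the alternatives the adjusted p ran from 0.00997 to 0.539 and from 0.000294 to 0.276. In another annotation, with 4128 exonic bases for *Ereg* against 4136 in the counts, 3.42% of the 4128 bases are shared with the predicted gene *Gm19610*.

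**Figure D2:**
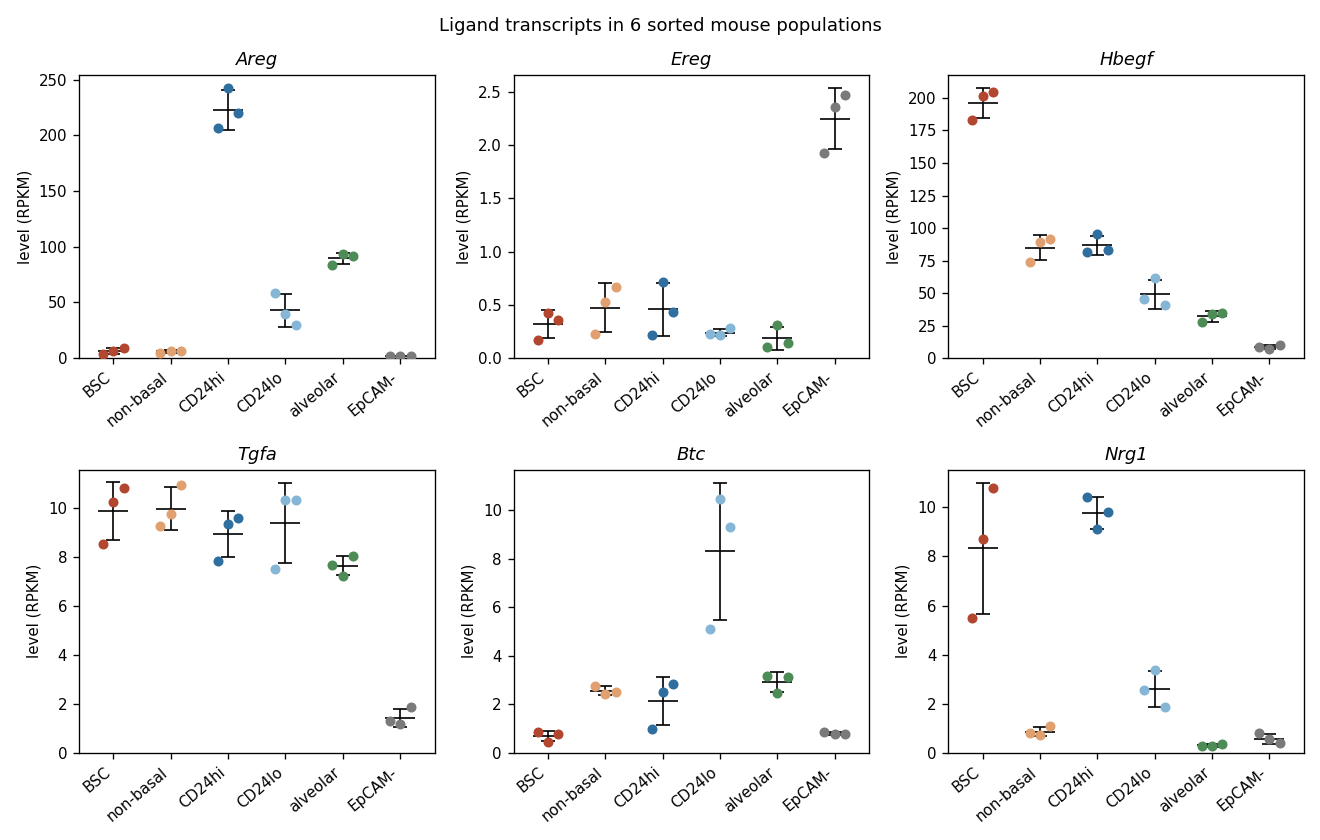
Level of each ligand transcript in RPKM (linear axis from 0, one scale per panel) in the 3 libraries of each population, as points in the order of the replicate numbers, with the mean and SD as bars. *Areg* peaks in CD24hi cells at 206.5 to 242.3 RPKM, *Hbegf* in BSCs at 183.1 to 204.4 RPKM, *Btc* in CD24lo cells and *Ereg* in EpCAM-negative cells, while *Nrg1* is high in both BSCs and CD24hi cells.

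The 6 ligands summed to 330.8 ± 26.3 RPKM in CD24hi cells and 221.9 ± 17.9 RPKM in BSCs, against 132.7 ± 8.83 RPKM in alveolar, 112.3 ± 17.9 RPKM in CD24lo and 104.7 ± 11.6 RPKM in non-basal cells. Of these 6, on the exonic lengths of the counts, *Hbegf* led in 4 populations and *Areg* in CD24hi and alveolar cells. The lead in CD24lo cells depends on these lengths, 2375 bases for *Hbegf* and 1199 for *Areg*. The other annotation gives 4834 and 1215 bases, and with the same reads *Areg* would lead there. *Hbegf* accounted for 88.6% ± 2.08 of the sum in BSCs and 81.0% ± 0.401 in non-basal cells, whereas *Areg* accounted for 67.4% ± 0.179 in CD24hi cells and 67.5% ± 1.02 in alveolar cells. CD24lo cells lay between them, with 43.6% ± 5.44 *Hbegf* and 37.8% ± 9.89 *Areg*. In EpCAM-negative cells the sum was only 15.6 ± 2.00 RPKM, of which *Hbegf* made up 54.6% ± 2.00 and *Areg* 12.7% ± 0.667. Over all 11 ligands the sum there was 28.3 ± 3.40 RPKM. Of that sum *Nrg2*, described below, made up 41.7% ± 0.812 and *Hbegf* 30.0% ± 1.55, so that *Nrg2* led. The ratio of *Areg* to *Hbegf* was 0.0202 to 0.0766 in the 6 tracheal libraries, 2.53 to 3.05 in the CD24hi and alveolar libraries, 0.653 to 1.30 in CD24lo libraries and 0.224 to 0.244 in EpCAM-negative libraries. CD24lo replicate 1, which stood apart, gave the 1.30.

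**Figure D3:**
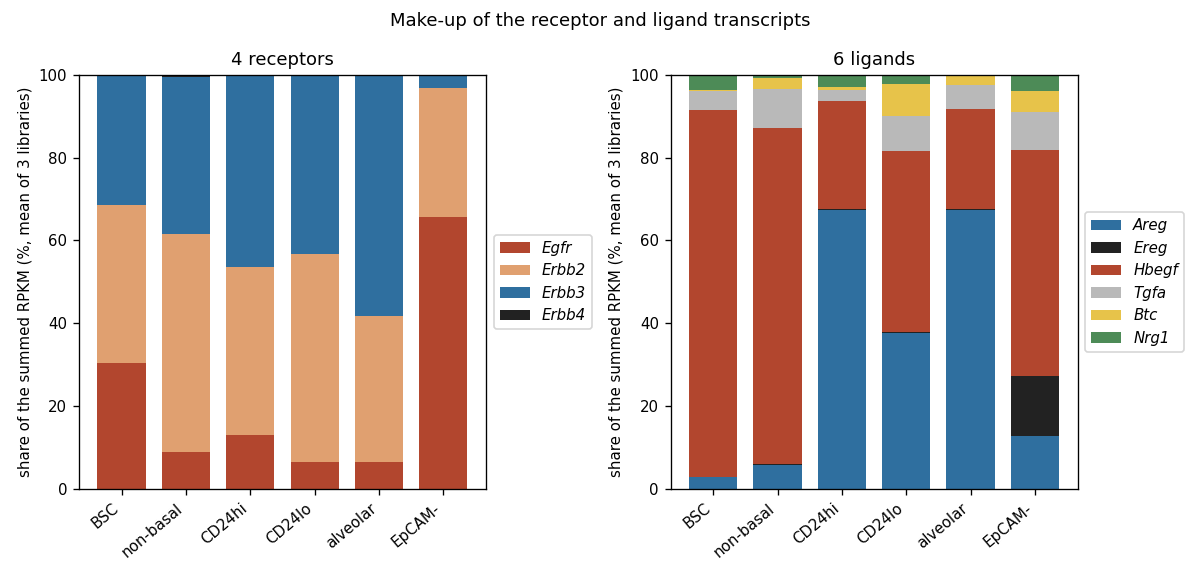
Mean share of each gene in the summed RPKM of the 4 receptors (left) and the 6 ligands (right) in each population, in percent, over 3 libraries. *Egfr* makes up 65.6% of receptor transcripts in EpCAM-negative cells and 30.3% in BSCs. Of these 6 ligands, on the exonic lengths of the counts, *Areg* leads in CD24hi and alveolar cells and *Hbegf* in the other 4 populations. The lead in CD24lo cells depends on these lengths. *Nrg2*, which is not among the 6, exceeds *Hbegf* in EpCAM-negative cells.

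The comparison of BSCs with non-basal cells asks what sets the stem cells of the trachea apart from its other epithelial cells, in the same 3 mice. Of the 10 members, 3 were higher (*Egfr*, *Hbegf*, *Nrg1*) and 3 lower (*Erbb4*, *Btc* and, except with library size alone, *Erbb2*) in BSCs. Over all genes 48.2% were called, 21.9% as higher and 26.2% as lower, so that 6 of 10 is near the background. *Erbb3*, *Areg*, *Ereg* and *Tgfa* were not called, with log2 differences of -0.14, 0.10, -0.56 and -0.01. Without the 5 libraries that stood apart, the log2 differences were 1.91 for *Egfr*, 1.17 for *Hbegf*, 3.41 for *Nrg1* and -0.28 for *Erbb2*, and *Ereg* was called in addition, at -0.60 (edgeR adjusted p = 0.0455, the lowest of 16 alternatives). With library size alone, the calls of all genes went from 3948 higher and 4720 lower to 7780 higher and 2989 lower, and the median of all genes moved from -0.02 to 0.31.

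BSCs and alveolar cells are the progenitor populations of trachea and alveolus. Against alveolar cells, 7 members were higher in BSCs (*Egfr*, *Erbb2*, *Erbb3*, *Erbb4*, *Hbegf*, *Tgfa*, *Nrg1*) and 2 were lower (*Areg*, *Btc*), against 66.1% of all genes called, 30.5% as higher and 35.6% as lower. *Nrg1* was 26.5-fold higher (log2 4.73, SE 0.34, edgeR adjusted p = 9.8e-10) and *Hbegf* 6.11-fold higher (log2 2.61, SE 0.16, edgeR adjusted p = 9.56e-11). *Areg* was 14.0-fold lower (log2 -3.80, SE 0.27, edgeR adjusted p = 8.2e-10) and *Btc* 4.20-fold lower (log2 -2.07, SE 0.33, edgeR adjusted p = 2.57e-05). *Erbb2* was 2.52-fold higher (log2 1.33, SE 0.09, edgeR adjusted p = 8.77e-10). *Erbb4*, whose passing of the low-count filter rested on trachea, is not to be read against that background, which leaves 6 higher and 2 lower of 9. With library size alone as the scaling, the median of all genes moved from -0.09 to 0.29 in this comparison, and the calls of all genes from 5485 higher and 6410 lower to 7924 higher and 4363 lower, while 9 members were called in both. *Ereg* was called too without the 5 libraries that stood apart (log2 1.64, edgeR adjusted p = 0.00234, the lowest of 16 alternatives).

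Within the lung airway, CD24hi against CD24lo cells compares the populations enriched for ciliated and for club cells. Of the members, 4 were higher in CD24hi cells (*Egfr*, *Areg*, *Hbegf*, *Nrg1*) and 3 lower (*Erbb2*, *Erbb4* and *Btc*, the first 2 of them not with library size alone), against 55.0% of all genes called, 27.8% as higher and 27.2% as lower. *Egfr* was 1.86-fold higher (log2 0.89, SE 0.13, edgeR adjusted p = 1.12e-05) and *Hbegf* 1.77-fold higher (log2 0.82, SE 0.15, edgeR adjusted p = 0.000142). *Erbb2* was 1.34-fold lower (log2 -0.42, SE 0.09, edgeR adjusted p = 0.000927), and this call was lost with library size alone (log2 -0.13, edgeR adjusted p = 0.247, the highest of 16 alternatives whose lowest was 9.53e-07). The median of all genes moved from -0.06 to 0.21 with that scaling, and the calls of all genes from 4998 higher and 4901 lower to 7002 higher and 3233 lower. *Erbb3*, *Ereg* and *Tgfa* were not called. Markers of other cell types also differed between the gates. Beside the ciliated and club markers, the summed levels of 8 lists were higher in every CD24lo library than in any CD24hi library. In sum, 4 alveolar type 2 markers were at 1225 to 2400 RPKM in CD24hi and 4813 to 7505 RPKM in CD24lo cells, 4 fibroblast markers at 29.5 to 47.6 and 143.4 to 167.6 RPKM, 3 smooth muscle markers at 16.9 to 42.9 and 68.5 to 141.9 RPKM and 4 basal markers at 4.51 to 5.46 and 41.9 to 76.3 RPKM. In the same order, 3 goblet markers were at 6.58 to 10.7 and 93.1 to 115.2 RPKM, 3 mesothelial markers at 4.66 to 6.11 and 35.5 to 63.9 RPKM, 4 alveolar type 1 markers at 238.0 to 377.2 and 480.1 to 587.2 RPKM and 3 neuroendocrine markers at 0.530 to 0.918 and 2.61 to 4.62 RPKM. Within these sums the alveolar type 1 marker *Hopx* went the other way, at 141.3 to 172.9 RPKM in CD24hi and 84.4 to 109.4 RPKM in CD24lo cells. The mesothelial sum was mostly *Msln*, at 4.01 ± 0.888 RPKM in CD24hi and 39.5 ± 11.8 RPKM in CD24lo cells. *Msln* was not particular to mesothelium here, with 1226 to 1268 RPKM in tracheal non-basal cells and 7.48 to 16.2 RPKM in EpCAM-negative cells. The summed ranges of 3 endothelial markers overlapped, at 35.3 to 114.7 and 82.1 to 164.9 RPKM, with the highest value of each group in replicate 1. Among these markers *Pecam1* and *Cdh5* overlapped as well. *Kdr* did not, at 11.3 to 21.5 RPKM in CD24hi and 42.2 to 43.7 RPKM in CD24lo cells. The part of these cells in the differences was not tested.

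Against alveolar cells, CD24hi cells had 5 members higher (*Egfr*, *Erbb2*, *Areg*, *Hbegf*, *Nrg1*) and 0 lower in edgeR's test, where 61.9% of all genes were called, 30.5% as higher and 31.4% as lower. *Nrg1* was 31.1-fold higher (log2 4.96, SE 0.34, edgeR adjusted p = 5.31e-10) and *Hbegf* 2.70-fold higher (log2 1.43, SE 0.15, edgeR adjusted p = 1.99e-07), and *Egfr* was 2.13-fold higher (log2 1.09, SE 0.13, edgeR adjusted p = 7.48e-07). *Erbb3* was not called (log2 -0.23, edgeR adjusted p = 0.0934), and without the 5 libraries that stood apart it was called as lower (log2 -0.26, edgeR adjusted p = 0.01, the lowest of 16 alternatives), *Ereg* and *Tgfa* were called as higher (log2 2.20 and 0.28) and *Erbb2* was not called. CD24lo cells had 4 members higher than alveolar cells (*Erbb2*, *Hbegf*, *Btc*, *Nrg1*) and 1 lower (*Areg*), where 48.4% of all genes were called, 24.2% as higher and 24.2% as lower. *Erbb2* was 1.65-fold higher (log2 0.72, SE 0.09, edgeR adjusted p = 4.75e-06), *Hbegf* 1.52-fold higher (log2 0.61, SE 0.15, edgeR adjusted p = 0.00277) and *Nrg1* 8.34-fold higher (log2 3.06, SE 0.38, edgeR adjusted p = 2.61e-06). *Tgfa* was not called (log2 0.29, edgeR adjusted p = 0.118) and was called without CD24lo replicate 1 (log2 0.44, edgeR adjusted p = 0.0206) and without the 5 libraries that stood apart (log2 0.40, edgeR adjusted p = 0.0108), with 0.0108 to 0.286 over 16 alternatives. Both comparisons share the alveolar libraries. With library size alone in the first of them, the median of all genes moved from -0.01 to 0.29 and the calls from 5479 higher and 5652 lower to 7285 higher and 3858 lower.

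EpCAM-negative cells were compared with the mean of the 3 lung epithelial populations on the log2 scale. Here 2 members were higher (*Egfr*, *Ereg*) and 7 lower (*Erbb2*, *Erbb3*, *Areg*, *Hbegf*, *Tgfa*, *Btc*, *Nrg1*), where 69.0% of all genes were called, 35.5% as higher and 33.4% as lower. *Egfr* was 4.10-fold higher (log2 2.04, SE 0.09, edgeR adjusted p = 1.07e-12). *Areg* was 47.6-fold lower (log2 -5.57, SE 0.31, edgeR adjusted p = 1.66e-11), *Hbegf* 6.02-fold lower (log2 -2.59, SE 0.15, edgeR adjusted p = 2.63e-11) and *Erbb2* 2.61-fold lower (log2 -1.38, SE 0.08, edgeR adjusted p = 6.85e-11). *Btc* was 4.62-fold lower (log2 -2.21, SE 0.32, edgeR adjusted p = 6.3e-06). *Nrg1* was called lower than this mean (log2 -1.78, SE 0.31, edgeR adjusted p = 6.72e-05). Against alveolar cells alone it pointed the other way. Every EpCAM-negative library lay above every alveolar one, but the difference was not called (log2 -0.89 for alveolar cells, edgeR adjusted p = 0.105). In alveolar cells, 4 fibroblast markers were at 0.684% to 8.54% of their EpCAM-negative level, *Ereg* at 8.37% and *Egfr* at 18.1%. The same markers were at 0.627% to 1.31% in CD24hi cells, with *Ereg* at 20.4% and *Egfr* at 38.6%. In CD24lo cells they were at 1.51% to 3.74%, with *Ereg* at 10.6% and *Egfr* at 20.7%. The part of fibroblasts in these epithelial levels was not tested.

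**Figure D4:**
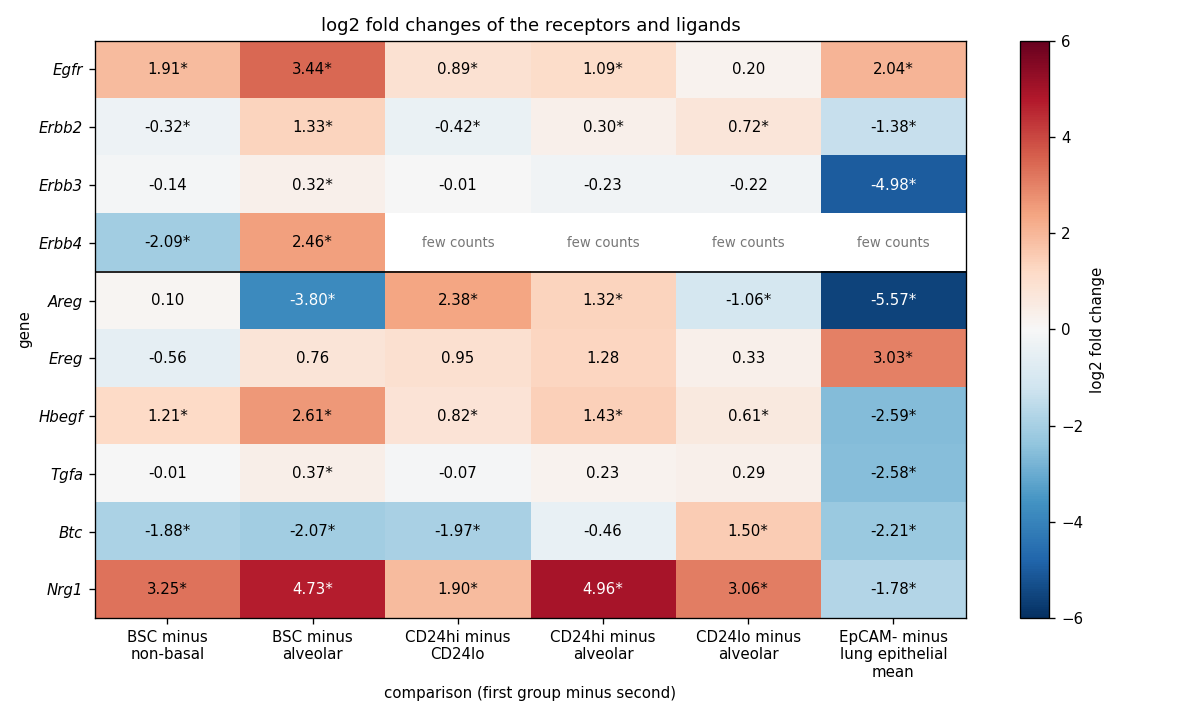
log2 fold change of each receptor (top) and ligand (bottom) in 6 comparisons, colour from -6 to 6, with the value in each cell and a star where the edgeR adjusted p is under 0.05; *Erbb4* cells between lung populations hold no value because a population held at most 8 reads. *Nrg1* is positive in all comparisons with alveolar cells and in both airway contrasts, *Btc* is negative in BSCs against both other populations, and EpCAM-negative cells are lower in all shown members except *Egfr* and *Ereg*.

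A further 56 genes of the pathway were examined by role, and 55 of them passed the filter. The exception was the neuregulin *Nrg3*, which had a mean of 0.00682 RPKM in EpCAM-negative cells and no reads elsewhere. When BSCs were set against non-basal cells, 28 genes were called as higher and 6 as lower, against 21.9% and 26.2% of all genes, and the median of the 55 on the log2 scale was 0.35, where that of all genes was -0.02. Between BSCs and alveolar cells the numbers were 26 higher and 16 lower, against 30.5% and 35.6% of all genes, with a median of 0.34 against -0.09. In CD24hi against CD24lo cells 9 were higher and 28 lower, against 27.8% and 27.2% of all genes, with a median of -0.37 against -0.06. These genes were chosen for their known roles, with earlier results of these data known, and a list's median describes only that list.

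Among the other ligands, *Nrg2*, a neuregulin, had the widest range. It stood at 18.3 ± 1.59 RPKM in BSCs and 11.8 ± 1.61 RPKM in EpCAM-negative cells, against 2.82 ± 0.472 RPKM in non-basal cells and 0.259 to 1.78 RPKM on average in the 3 lung epithelial populations. It was higher in BSCs than in non-basal cells (log2 2.69, SE 0.18, edgeR adjusted p = 2.36e-09) and thus moved with *Nrg1* there, but was lower in CD24hi than in CD24lo cells (log2 -2.77, SE 0.31, edgeR adjusted p = 7.04e-07), opposite to *Nrg1*. *Nrg4*, an ERBB4 ligand, was highest in CD24hi cells, at 2.93 ± 0.137 RPKM, and exceeded CD24lo cells by 0.88 on the log2 scale (SE 0.21, edgeR adjusted p = 0.00179). *Egf* itself stayed between 0.112 and 0.434 RPKM on average in every population, and *Epgn*, epigen, at or below 0.254 RPKM.

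Ligand shedding depends on the proteases ADAM9, ADAM10 and ADAM17, on the iRhoms (*Rhbdf1*, *Rhbdf2*) that bring ADAM17 to the surface, on the protease RHBDL2 and on the inhibitor TIMP3. All 7 of these genes were lower in CD24hi than in CD24lo cells in edgeR's test (median -0.58 on the log2 scale, against -0.06 for all genes), where 27.2% of all genes were called as lower and 55.0% in either direction. With library size alone, the median of all genes moved from -0.06 to 0.21 in this comparison, and the 7 calls are not given for that scaling. Small differences such as that of *Adam17* depend on it. *Adam17* was at 10.5 ± 1.54 RPKM in CD24hi cells, 12.9 ± 0.731 RPKM in CD24lo cells and 22.2 to 28.3 RPKM on average in the other 4 populations. The gene with the widest range was *Rhbdl2*, at 7.74 ± 0.601 RPKM in BSCs, 8.62 ± 0.591 RPKM in non-basal cells and 5.30 ± 1.05 RPKM in CD24lo cells, against 0.397 ± 0.0485 RPKM in CD24hi cells and under 0.03 RPKM in alveolar and EpCAM-negative cells. *Timp3* was at 908.5 ± 36.9 RPKM in EpCAM-negative cells and 53.9 to 83.3 RPKM on average elsewhere. Between BSCs and non-basal cells, where 48.2% of all genes were called, only *Adam9* of the 7 was called, as lower (log2 -0.67). *Adam9* was named after its value was seen.

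Between BSCs and non-basal cells, 5 of 8 adaptors that link the receptors to their cascades were called as higher in BSCs and 1 as lower. Over all genes 21.9% were called as higher and 26.2% as lower. The median of the adaptors was 0.36 on the log2 scale, where that of all genes was -0.02. The adaptor that was lower was *Eps8*, an EGFR substrate, at 17.2 ± 0.494 RPKM in BSCs and 22.9 ± 1.42 RPKM in non-basal cells. *Eps8* was highest in alveolar cells, at 42.0 ± 2.98 RPKM, and so was *Plcg1*, phospholipase C gamma, at 42.3 ± 0.245 RPKM against 17.6 ± 1.81 RPKM in BSCs. Of 14 genes of the RAS-ERK and PI3K cascade, 4 were called as higher in BSCs and 1 as lower, and 9 were not called. These counts stand against the same 21.9% and 26.2% of all genes, and the 4 higher genes are near that background. *Pik3r1*, the regulatory subunit of PI3K, stood at 51.0 ± 3.06 RPKM in BSCs and 18.1 ± 1.76 RPKM in non-basal cells (log2 1.49, SE 0.11, edgeR adjusted p = 8.18e-09). *Map2k1*, the kinase MEK1, was instead highest in alveolar cells, at 53.2 ± 5.18 RPKM, against 22.6 ± 0.497 RPKM in BSCs (log2 -1.24 for BSCs, SE 0.07, edgeR adjusted p = 9.74e-11).

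The inhibitors of the receptors and of the cascade were examined in the same way. Of 15 genes, 13 were called as higher and 2 as lower, against 21.9% and 26.2% of all genes, and the median was 0.81 on the log2 scale, where that of all genes was -0.02. The 2 lower genes, named after their values were seen, were *Cblb*, a ubiquitin ligase, and the phosphatase *Ptprj*, with log2 fold changes of -0.33 and -0.80. *Dusp6*, a phosphatase of ERK, stood at 184.4 ± 37.4 RPKM in BSCs against 70.6 ± 10.1 RPKM in the non-basal population (log2 1.39, SE 0.16, edgeR adjusted p = 1.43e-06) and was at 18.4 ± 2.15 RPKM in alveolar cells. *Spry4*, a Sprouty protein, was low in trachea, with 0.632 ± 0.177 RPKM in BSCs against 0.213 ± 0.109 RPKM in the rest, and highest in EpCAM-negative cells, at 10.3 ± 0.874 RPKM. Against alveolar cells, 10 of the 15 were higher and 2 lower in BSCs, against 30.5% and 35.6% of all genes. The median was 0.72, where that of all genes was -0.09. In CD24hi against CD24lo cells, 1 was higher, 7 were lower and 7 were not called, against 27.8% higher and 27.2% lower over all genes. The median was -0.49, where that of all genes was -0.06.

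Of 7 genes known as outputs of ERK signalling, edgeR's test called 5 as higher and 0 as lower in BSCs against non-basal cells. Over all genes 21.9% were called as higher and 26.2% as lower there. *Ier3* and *Ccnd1*, named for that after their values were seen, did not pass (log2 -0.02 and 0.24). *Fosl1*, an AP-1 subunit, had 8.57 ± 2.40 RPKM in BSCs, 3.38 ± 1.02 RPKM in the non-basal population and 0.498 ± 0.224 RPKM in alveolar cells. *Etv5*, an ETS factor, had 1.82 ± 0.172 RPKM in BSCs against 0.485 ± 0.0419 RPKM in the non-basal population (log2 1.91, SE 0.16, edgeR adjusted p = 2.39e-08). Alveolar cells, however, held 186.0 ± 17.3 RPKM of *Etv5* (log2 -6.67 for BSCs against them, SE 0.16, edgeR adjusted p = 1.46e-15). *Etv5* was also far lower in CD24lo than in alveolar cells, at 5.37 ± 1.16 RPKM (log2 -5.11). In BSCs against alveolar cells 4 of the 7 were higher and 2 lower, against 30.5% and 35.6% of all genes. The immediate early list was also higher in BSCs than in non-basal cells, at 12440 to 16040 against 6859 to 9627 RPKM, and its part in these counts was not tested.

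**Figure D5:**
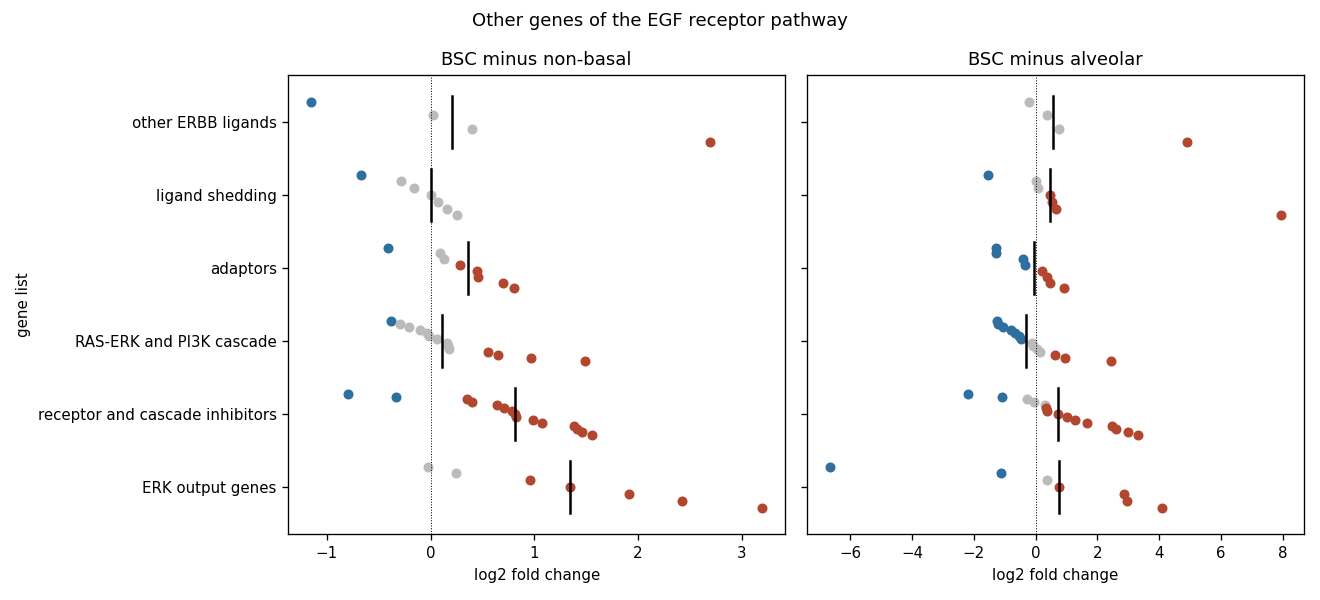
log2 fold change of each tested gene of 6 pathway lists in BSCs against non-basal cells (left) and against alveolar cells (right), as points, red where higher and blue where lower at an edgeR adjusted p under 0.05 and grey otherwise, with the median of the list as a black line. Of the inhibitors, 13 of 15 lie to the right of 0 and are called on the left panel, and the point at -6.67 on the right panel is *Etv5*.

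The genes whose log2 CPM profile over the 18 libraries was most like that of each member were sought among 12001 genes, by Pearson's r. The closest likeness was that of *Erbb3* to *Kcnj13*, *Marveld3* and *Rab25* (r = 0.994, 0.994 and 0.993), all of which were low in EpCAM-negative cells, at 0.207 to 0.970 RPKM on average. *Tgfa* was most like *Tjp3*, *Kcnj13* and *Rasef* (0.983, 0.982 and 0.981), and the r of *Tgfa* with *Erbb3* itself was 0.981. *Hbegf* was most like *Frem2*, *Tsc22d1* and *Sfn* (0.984, 0.983 and 0.982). *Egfr* was most like *Tnrc6c*, *Mideas* and *Vezf1* (0.978, 0.973 and 0.973). For *Erbb2* these were *Hs3st3b1*, *Evpl* and *Misp* (0.975, 0.975 and 0.974), for *Areg* *Zfp444*, *Gstz1* and *Ewsr1* (0.971, 0.971 and 0.969) and for *Btc* *Mgst1*, *Ssbp1* and *Abca4* (0.962, 0.962 and 0.917). *Mgst1* was at 1923 RPKM in CD24lo cells, its highest population like that of *Btc*. *Ereg* was most like *Pard3b* and *Nr4a3* (0.947 and 0.930), *Nrg1* like *Plekha1*, *Acaa1b* and *Srpk2* (0.934, 0.932 and 0.931) and *Erbb4* like *Sec16a*, *Psmd11* and *Cops4* (0.964, 0.931 and 0.930). Among the members, the most opposed pairs were *Erbb3* and *Ereg* (r = -0.836) and *Egfr* and *Btc* (r = -0.824). The 18 libraries are 3 replicates of 6 populations, so these values describe mostly 6 levels and carry no test.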

How the data were processed

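RNA of 6 sorted mouse cell populations was sequenced as single-end reads in 18 libraries. Per the study's methods, the authors aligned reads to mm10 with Rsubread and assigned them to Entrez genes with featureCounts, and they deposited raw counts for 27179 genes with the exonic length of each. The deposited counts were not normalized, and 0 rows named no gene. A further table of the whole series was not used. For 25275 identifiers a symbol was found in the GRCm38.p6 table of NCBI, which also gave the coordinates.

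The 17989 genes that exceeded a CPM of 0.2 in 3 or more libraries entered the test, with TMM factors, in edgeR 4.0.16 (quasi-likelihood fit and test) under R 4.3.3, in one fit with a mean for each population. RPKM used TMM-scaled library sizes. The members and gene lists were chosen with earlier results of these data known. The pathway genes described were those 2 of each list with the widest range of group mean log2 CPM and a mean CPM of 1 or more, and the 3 most alike genes per member were sought among those with a mean CPM of 5 or more, of which 1 is not reported here. Other genes were named after their values were seen. Each library of a population came from another mouse.

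Alternatives were limma voom 3.58.1, DESeq2 1.42.0, RLE factors, scaling by library size alone, a filter at a CPM of 1, no filter, only the libraries compared, the mouse as a replicate block, tracheal libraries thinned to 11788193 reads, and leaving out each library. Leaving out the 5 libraries that stood apart was chosen after seeing the data. A library stood apart where its chi-square per gene against both other replicates was over 3 times that between them. By the labels, equal numbers mark libraries of the same mouse. Deviations from the group means correlated across genes at 0.336, 0.117 and 0.218 between the tracheal libraries of mice 1 to 3 and at -0.0593 to 0.278 between lung libraries of one mouse. On simulated counts for BSCs against non-basal cells with 17989 genes, 152 of 200 changed genes and 4 unchanged genes were called.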

Additional observations from a re-analysis of the deposited data

How the results depend on the processing

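The counts of members, of pathway genes and of all genes called stayed within 1.5 times of the reported ones in all 6 comparisons under every alternative run. Single values turned as follows. With library size alone, which moves the median of all genes by more than 0.1 in 4 of the comparisons, BSCs against non-basal cells gave log2 differences of 0.027 for *Erbb2*, 0.213 for *Erbb3* and 0.330 for *Tgfa* (edgeR adjusted p = 0.0385 for the last). The same scaling gave 0.291 for *Erbb3* (edgeR adjusted p = 0.018) and 0.229 for *Tgfa* in CD24hi against CD24lo cells, and 0.092 for *Erbb3* in CD24hi against alveolar cells. *Tgfa* in BSCs against non-basal cells was 0.044 with thinned tracheal libraries and 0.026 without the 5 libraries that stood apart, and *Erbb3* in CD24hi against CD24lo cells was 0.009 with limma voom. On leaving out 1 library at a time, values around 0 changed sign: *Areg* (-0.218 to 0.375) and *Tgfa* (-0.086 to 0.079) in BSCs against non-basal cells, *Erbb3* (-0.157 to 0.073) and *Tgfa* (-0.211 to 0.019) in CD24hi against CD24lo cells, and *Erbb4* in EpCAM-negative cells (-1.046 to 0.604), where the reads are too few to tell. With the mouse as a replicate block, the calls of *Ereg* in CD24hi against CD24lo cells (0.894) and against alveolar cells (1.254) were gained, and no other member's call changed. A fit of only the libraries compared gave no value for *Erbb4* in the 4 comparisons within the lung. Lung libraries hold far fewer reads than tracheal ones, which limits low transcripts such as *Erbb4* and *Ereg*.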
